A study of Mus musculus with 16 samples.

Results

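Immediate early genes are switched on within minutes of a stimulus, without new protein synthesis, and the enzymatic and mechanical steps that free cells from brain tissue are themselves such a stimulus. The set described here holds 36 genes: 33 immediate early and related response genes, and 3 inducible heat shock genes that respond to the same handling. Members were taken by gene name from 2 count tables, and all 36 were found once in each, among 55414 features in the microglia table and 56980 in the astrocyte table. All 36 passed the filter on low counts in both, where 17318 and 20116 genes were tested.

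The series asked what loss of Rack1 does in an Alzheimer's disease (AD) mouse model. RACK1 sits on the ribosome and also anchors signalling kinases, protein kinase C among them. Microglia, the resident macrophages of the brain, and astrocytes, its main glial support cells, were each profiled in 4 groups of 2 libraries. The groups were mice with Rack1 intact and no disease model (WT), mice carrying the Rack1 conditional knockout alone (CKO), the AD model with Rack1 intact (AD WT) and the AD model with the knockout (AD CKO). The series text places the knockout in microglia, so the astrocytes of CKO mice are cells beside targeted microglia. The Cre driver, the AD transgenes, the age and number of mice, any pooling of animals and the way the cells were isolated are not given in the sources used here. Since nothing states that the 2 libraries of a group came from separate mice, every p-value measures the spread between libraries, which may be technical.

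Signals reach these genes through kinase cascades that act on transcription factors already present in the cell: the serum response factor SRF with its ternary complex partners, the cyclic AMP response element (CRE) binding protein CREB, and, for heat shock genes, HSF1. The products fall into transcription factors (the AP-1 proteins FOS and JUN, the EGR zinc fingers, the NR4A orphan nuclear receptors, Krüppel-like factors) and feedback proteins that end the response, such as DUSP phosphatases acting on MAP kinases and ZFP36, which binds AU-rich elements and promotes decay of messenger RNA. In microglia and astrocytes their messages are known both as activity genes and as marks of tissue dissociation, and a total level cannot separate those sources.

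The NR4A genes were among the members whose CKO change in microglia had the opposite sign to that of Fos, and their upstream sequence, chosen after these values were seen, is shown for that reason beside that of Fos. Each line is the 250 bases before the transcription start (RefSeq, GRCm38.p6), 5′ to 3′ on the gene's strand, with the CRE core TGACG, or CGTCA where it lies on the opposite strand, in capitals. The Fos stretch is chr12:85473640-85473889 (plus strand), that of Nr4a1 chr15:101266596-101266845 (plus), that of Nr4a2 chr2:57124004-57124253 (minus) and that of Nr4a3 chr4:48045055-48045304 (plus).
Fos: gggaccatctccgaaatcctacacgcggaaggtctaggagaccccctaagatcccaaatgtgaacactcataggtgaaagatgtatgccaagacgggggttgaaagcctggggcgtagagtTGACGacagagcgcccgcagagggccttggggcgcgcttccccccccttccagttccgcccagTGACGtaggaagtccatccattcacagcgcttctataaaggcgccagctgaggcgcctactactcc
Nr4a1: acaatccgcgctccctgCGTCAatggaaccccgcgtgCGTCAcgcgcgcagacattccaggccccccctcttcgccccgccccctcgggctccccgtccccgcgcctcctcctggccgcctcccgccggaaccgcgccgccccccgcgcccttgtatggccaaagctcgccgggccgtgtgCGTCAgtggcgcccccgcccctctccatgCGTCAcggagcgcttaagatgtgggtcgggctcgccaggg
Nr4a2: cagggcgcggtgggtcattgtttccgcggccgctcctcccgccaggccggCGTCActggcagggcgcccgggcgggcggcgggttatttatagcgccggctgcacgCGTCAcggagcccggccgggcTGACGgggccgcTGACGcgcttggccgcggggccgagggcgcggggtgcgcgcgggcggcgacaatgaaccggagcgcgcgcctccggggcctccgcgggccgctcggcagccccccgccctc
Nr4a3: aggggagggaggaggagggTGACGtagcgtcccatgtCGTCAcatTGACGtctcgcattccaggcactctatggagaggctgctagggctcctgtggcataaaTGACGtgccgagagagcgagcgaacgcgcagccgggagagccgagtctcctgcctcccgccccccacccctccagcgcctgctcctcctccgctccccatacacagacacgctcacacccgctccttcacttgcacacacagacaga
The 3 NR4A stretches hold 4 cores each and the Fos stretch holds 2. Among all 32851 windows of the promoter table, which run from 250 bases before to 50 after a start, 76 (0.231%) hold 4 or more. This cut-off is the number found in the NR4A stretches, so the share is a description and no test. The number of cores did not sort the members by direction. Of the others that rose in CKO microglia, the windows of Klf4 and Per1 hold 1 each, that of Fosl2 holds 0 and those of Maff hold 0, 2 and 1. Sik1, which also rose, had no window. The window of Btg2, which fell, holds 2 and that of Dusp1, which was not called, holds 3. In Btg2, Dusp1 and Maff, 2 of the cores are the strands of 1 palindromic site.

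The table held promoters for 30 of the 36 members, in 41 windows. Egr1, Egr3, Ier2, Klf10, Myc and Sik1 had none there, so they were not searched for motifs. TGACG on either strand was in 25 of the 41 windows (61%) and in 20.8% of all windows. The complete palindromic CRE, TGACGTCA, which contains a core on each strand, was in 7.32% of member windows and 1.79% of all; it lay in those of Btg2, Dusp1 and Maff. The CArG box, the motif of SRF, was in windows of 3 members (Dusp5, Egr2 and Zfp36), which is 10% of the 30, and in 1.81% of all genes of the table. By window it was in 6 of 41 (14.6%) against 1.63% of all, but 4 of these 6 are alternative starts of Egr2, and some of those windows overlap. The AP-1 motif TGANTCA was in 1 of the 41 member windows (2.44%) and in 7.81% of all windows, and the heat shock letters GAANNTTC were in 9.76% and 7.86%, among them the windows of Hspa1a and Hspa1b. Such matches describe letters in a window and do not show binding.

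The members are short genes. Their median span was 5073 bp against 23856 bp for the protein-coding genes tested, with a median of 3 exons against 8, and 83.3% against 23.8% had at most 4 exons. Among the 35 members whose chosen transcript has a 3′ UTR, 88.6% carry the pentamer ATTTA there, against 66.4% of the protein-coding genes tested. Those 3′ UTRs were also longer, with medians of 1186 and 1003.5 nt, and the pentamer's density was 2.16 against 1.84 per kb. Jun, Junb, Jund, Dusp1, Dusp5, Zfp36, Csrnp1 and Hspa1a share exon bases with a gene on the opposite strand, and the SMART-Seq kit named in the labels does not mark strand, so reads of such pairs cannot be told apart. In mm10, Fos lies at chr12:85473890-85477273, Nr4a1 at chr15:101254269-101274795, Nr4a2 at chr2:57106830-57124003, Klf2 at chr8:72319033-72321656, Ier3 at chr17:35821684-35822923, Dusp1 at chr17:26505590-26562128 and Sik1 at chr17:31844250-31855804.

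Library totals ran from 27741882 to 33933068 counts in microglia and from 29615853 to 35851170 in astrocytes. Levels are given as CPM, a count relative to its TMM-adjusted library size, and n is 2 libraries in every group. Over the members, the SD within a group had a median of 4.55% of the mean in microglia and 4.09% in astrocytes. The targeted gene itself, Rack1, had a mean of 96.6 ± 2.05 CPM (SD) in WT and 41.2 ± 1.12 CPM in CKO microglia, and 114 ± 1.33 CPM in AD WT and 47.5 ± 0.423 CPM in AD CKO microglia. In astrocytes Rack1 was at 59.5 ± 2.25 CPM in WT, 99.1 ± 4.73 CPM in CKO, 74.8 ± 2.59 CPM in AD WT and 54.0 ± 1.03 CPM in AD CKO, so it was higher in CKO and lower in AD CKO than in the respective control.

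Summed CPM of cell type marker lists differed between the groups. In the microglia libraries the 10 microglia markers summed to 49674–51830 CPM in WT, 31135–32018 in CKO, 45559–45911 in AD WT and 33953–35122 in AD CKO. The 8 oligodendrocyte markers there summed to 3136–3277 CPM in WT, 8211–8608 in CKO, 3736–3741 in AD WT and 2256–2308 in AD CKO, and the 8 markers of border macrophages and monocytes to 231–235, 545–548, 201–202 and 421–433 CPM in the same order. The 6 neutrophil markers summed to 218–237, 597.6–598.1, 422–426 and 262–280 CPM. Endothelial sums were 397–401, 442–447, 686–694 and 481–492 CPM, and mural sums 215–219, 244–246, 336–341 and 230–231 CPM. Ependymal and choroid sums were 886–924, 393–395, 674–677 and 745–790 CPM. In the astrocyte libraries the 10 astrocyte markers summed to 25576–26081 CPM in WT, 11186–11520 in CKO, 24313–25148 in AD WT and 15601–15778 in AD CKO. The 8 oligodendrocyte markers summed to 13929–14080 CPM in WT, 12661–12988 in CKO, 6576–6765 in AD WT and 18567–18703 in AD CKO. In both knockout groups that sum was above the astrocyte sum. The 6 ependymal and choroid markers summed to 4285–4605, 9153–10472, 8343–9471 and 5409–5809 CPM in the same order of groups. The 8 endothelial markers there summed to 2018–2051, 6309–6359, 2550–2579 and 2753–2811 CPM, and the 10 microglia markers to 530–532, 1851–1889, 1147–1153 and 1214–1225 CPM. No marker of these lists was at 0 in every library. In bulk RNA, fewer cells of a type, less RNA per cell and changed expression of the markers themselves cannot be told apart. What part these shifts have in the members' values was not tested.

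**Figure D1:**
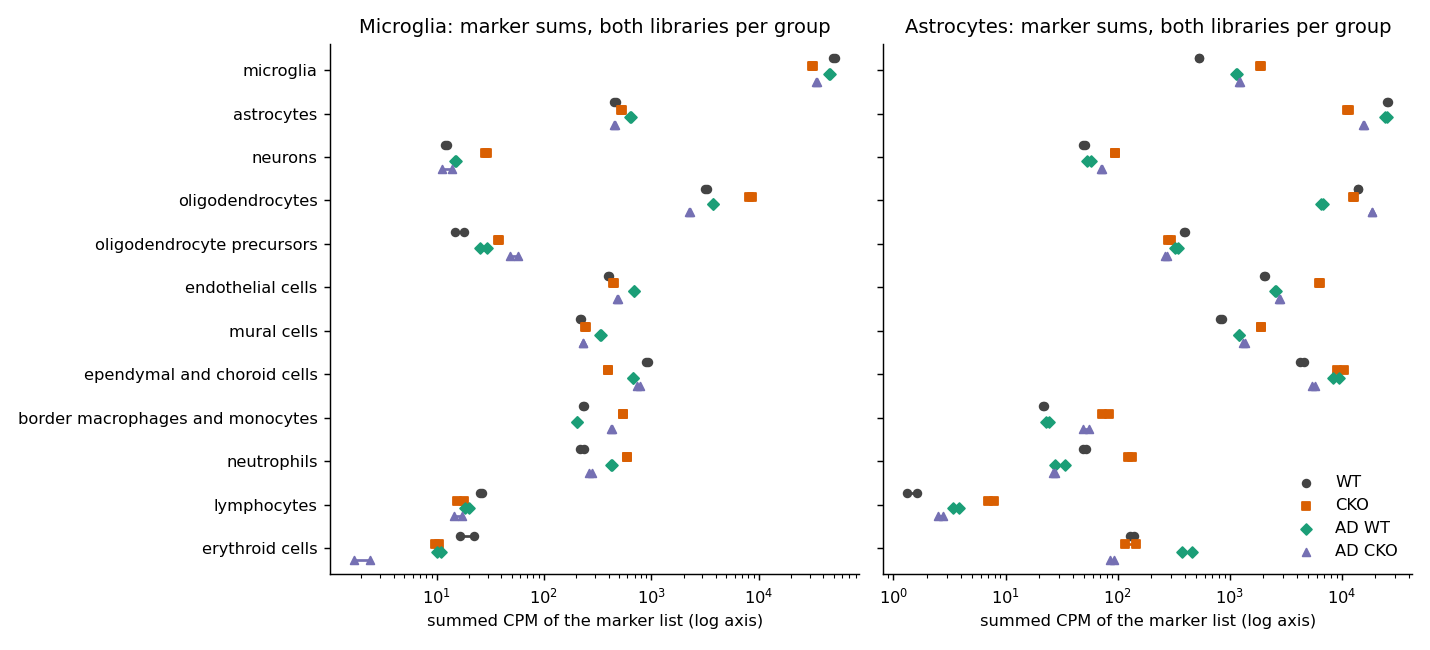
Summed CPM (log axis) of 12 marker lists in the microglia libraries (left) and astrocyte libraries (right); the 2 points of a colour are the libraries of a group. In astrocytes the CKO libraries have the lowest astrocyte sum (11186–11520 CPM) and the highest endothelial sum (6309–6359 CPM).

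**Figure D2:**
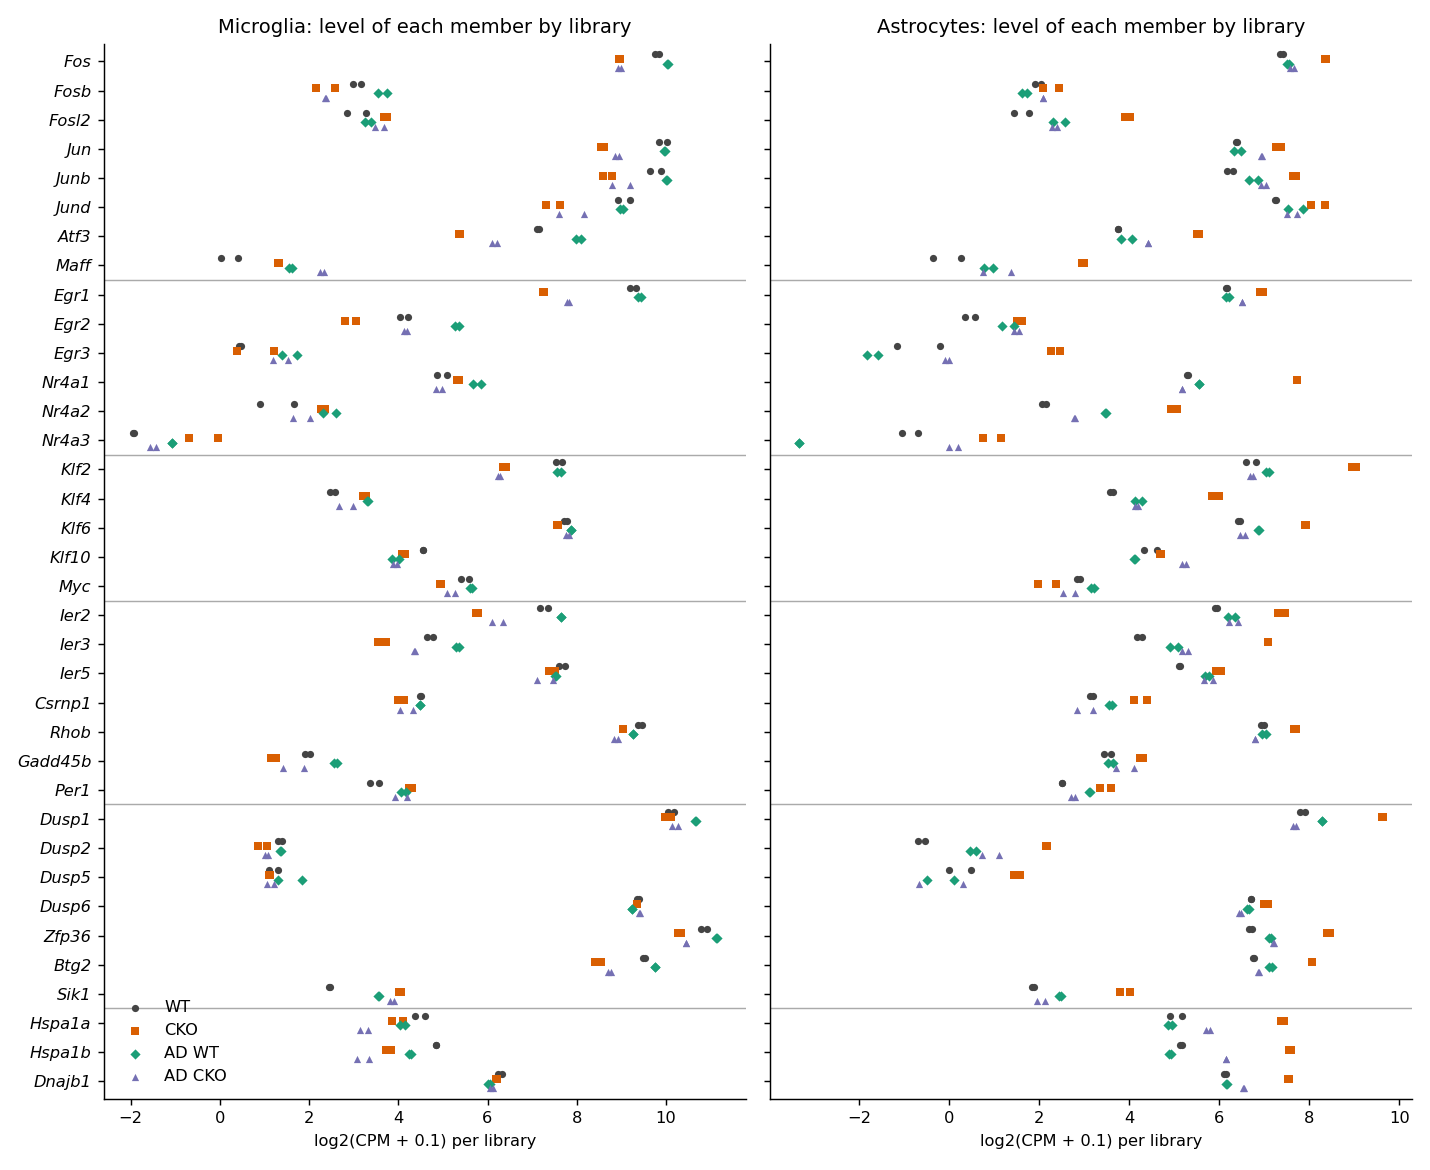
Level of each of the 36 members, as log2(CPM + 0.1), in the 8 microglia libraries (left) and 8 astrocyte libraries (right), with lines between role groups. CKO points (squares) lie left of WT for most AP-1, EGR1/2 and IER members in microglia and right of WT for nearly all members in astrocytes; Nr4a3 at the left edge marks the AD WT astrocyte libraries, listed at 0.

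In WT microglia, scaled per kilobase of transcript, the highest members were Zfp36 (660 CPM per kb), Dusp1 (558), Junb (482), Fos (423) and Jund (321). In WT astrocytes they were Dusp1 (116 CPM per kb), Jund (91.8), Fos (79.0), Klf2 (56.6) and Rhob (52.9). The values of the cell types come from separately scaled tables and were not tested against each other.

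The comparison of CKO with WT microglia asks what the Rack1 knockout does without the disease model. Of the 36 members 21 fell and 8 rose, while 15.9% of all genes tested fell and 17.7% rose; a call means an adjusted p under 0.05 over all genes tested. The median log2 fold change of the members was -0.44, against 0.04 over all genes tested. Without WT library 1 the number that rose was 5, the calls of Nr4a1, Nr4a2 and Nr4a3 being lost. Both CKO libraries lay below the 6 other microglia libraries for 11 members (Jun, Atf3, Egr1, Egr2, Klf6, Myc, Ier2, Ier3, Gadd45b, Zfp36 and Btg2), as they did for 10% of all genes tested.

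Of the 8 AP-1 and related bZIP members 6 fell and 2 rose. Fos, the partner of JUN in AP-1, was at 863 and 922 CPM in WT, 491 and 504 in CKO, 1036 and 1050 in AD WT and 512 and 484 in AD CKO. All 4 knockout libraries were below all 4 with Rack1 intact, and the CKO change was a log2 fold change of -0.84 ± 0.04 (SE; adjusted p = 1.3e-15). Jun stood at 914 and 1033 CPM in WT and 370 and 389 in CKO (-1.36 ± 0.05). Atf3, a stress-induced bZIP factor, was at 139 and 143 CPM in WT, 41.6 and 40.8 in CKO, 275 and 255 in AD WT and 74.2 and 68.7 in AD CKO. The WT and CKO libraries of Atf3 did not overlap (-1.77 ± 0.06, adjusted p = 2.8e-19), and its AD WT libraries were the highest. Junb (792 and 953 CPM in WT, 382 and 441 in CKO; -1.08 ± 0.19) and Jund (482 and 589, then 159 and 196; -1.59 ± 0.24) had wider errors. The Junb call was lost without WT library 2 or either CKO library (adjusted p 0.058 to 0.074), and the Jund call without WT library 2 or CKO library 1 (0.053 and 0.059). Fosb fell from 8.92 and 7.76 to 4.35 and 5.93 CPM, a call lost without CKO library 1 (adjusted p = 0.060). Against these, Fosl2, a late-acting FOS family member, rose from 7.15 and 9.54 to 12.8 and 13.3 CPM (0.64 ± 0.15), and Maff, a small MAF protein with no activation domain, from 1.22 and 0.925 to 2.40 and 2.37 CPM (1.15 ± 0.29).

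Of the 6 EGR and NR4A transcription factors 2 fell, 3 rose and 1 was not called in CKO microglia, and none of the 3 rises held without WT library 1. Egr1, a zinc finger factor downstream of SRF, was at 588 and 644 CPM in WT, 151 and 154 in CKO, 694 and 661 in AD WT and 220 and 227 in AD CKO. Its fall (-2.01 ± 0.05, adjusted p = 1.4e-22) was the largest negative log2 fold change among the members in this comparison. Egr2 fell from 18.5 and 16.4 to 8.14 and 6.87 CPM (-1.21 ± 0.12), and Egr3 had overlapping libraries (1.26 and 1.29, then 1.20 and 2.23 CPM) and was not called. Nr4a1, whose promoter stretch is printed above, rose from 29.2 and 34.2 to 39.6 and 40.9 CPM (0.35 ± 0.09, adjusted p = 0.0032), and Nr4a2 from 1.77 and 3.07 to 4.74 and 5.06 CPM (1.02 ± 0.25). Without WT library 1 these were 0.23 (adjusted p = 0.090) and 0.67 (0.078). Nr4a3 was near the detection limit, at 0.161 and 0.165 CPM in WT and 0.519 and 0.872 in CKO; its log2 fold change of 2.06 ± 0.73 (adjusted p = 0.029) was not called without any single one of these 4 libraries or by DESeq2 (0.064).

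Among the Krüppel-like factors and Myc, 4 fell and Klf4 rose. Klf2, which restrains inflammatory activation of myeloid and endothelial cells, was at 185 and 203 CPM in WT, 80.7 and 84.9 in CKO, 189 and 201 in AD WT and 75.5 and 77.5 in AD CKO. The knockout libraries were all below the others (-1.23 ± 0.06, adjusted p = 3.3e-16). Myc fell from 42.2 and 48.1 to 30.6 and 31.0 CPM (-0.55 ± 0.09), Klf10 from 23.3 and 23.5 to 17.6 and 16.9 CPM (-0.44 ± 0.11) and Klf6 by a small margin, from 211 and 221 to 191 and 189 CPM (-0.18 ± 0.05). Klf4 rose from 5.48 and 5.88 to 9.22 and 9.52 CPM (0.72 ± 0.16).

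Of the 7 IER and other response members 5 fell. Ier2, a nuclear immediate early protein, was at 144 and 164 CPM in WT and 53.2 and 55.1 in CKO (-1.51 ± 0.08). Ier3 fell from 25.0 and 27.5 to 11.6 and 13.1 CPM (-1.08 ± 0.10), and Rhob, a short-lived small GTPase, from 662 and 710 to 521 and 526 CPM (-0.39 ± 0.04). Csrnp1 fell by 0.44 ± 0.11 on the log2 scale and Gadd45b by 0.79 ± 0.24, the latter call being lost without WT library 1 or CKO library 1 (adjusted p = 0.067 in each case). Per1, a clock gene that is also induced through CREB and the glucocorticoid receptor, rose from 10.2 and 11.8 to 19.7 and 18.8 CPM (0.81 ± 0.12), and Ier5 was not called.

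Feedback members split. Sik1, a kinase induced by CREB that restrains CREB coactivators, rose from 5.41 and 5.38 CPM in WT to 16.5 and 16.04 in CKO, with 11.8 and 11.6 in AD WT and 14.0 and 14.8 in AD CKO; the WT libraries were the lowest (CKO against WT, 1.59 ± 0.14, adjusted p = 2.0e-10). Zfp36 fell from 1759 and 1925 to 1229 and 1299 CPM (-0.54 ± 0.04), and Btg2, an antiproliferative adaptor of the CCR4-NOT deadenylase, from 720 and 733 to 340 and 373 CPM (-1.03 ± 0.04). The MAP kinase phosphatases Dusp1, Dusp2, Dusp5 and Dusp6 were not called; Dusp1, the highest of them, was at 1059 and 1160 CPM in WT and 1013 and 1110 in CKO, with overlapping libraries.

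Among heat shock members, Hspa1a and Hspa1b encode nearly the same HSP70 protein, and their coding sequences are identical at 1915 of 1923 aligned bases, so how reads were divided between them is uncertain. Their summed level was 49.3 and 52.6 CPM in WT, 28.4 and 30.2 in CKO, 37.3 and 35.0 in AD WT and 18.1 and 18.7 in AD CKO. Taken separately, Hspa1a fell by 0.51 ± 0.12 and Hspa1b by 1.07 ± 0.11 on the log2 scale in CKO microglia, and the HSP40 co-chaperone Dnajb1 was not called (75.7 and 79.9, then 72.5 and 74.5 CPM).

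**Figure D3:**
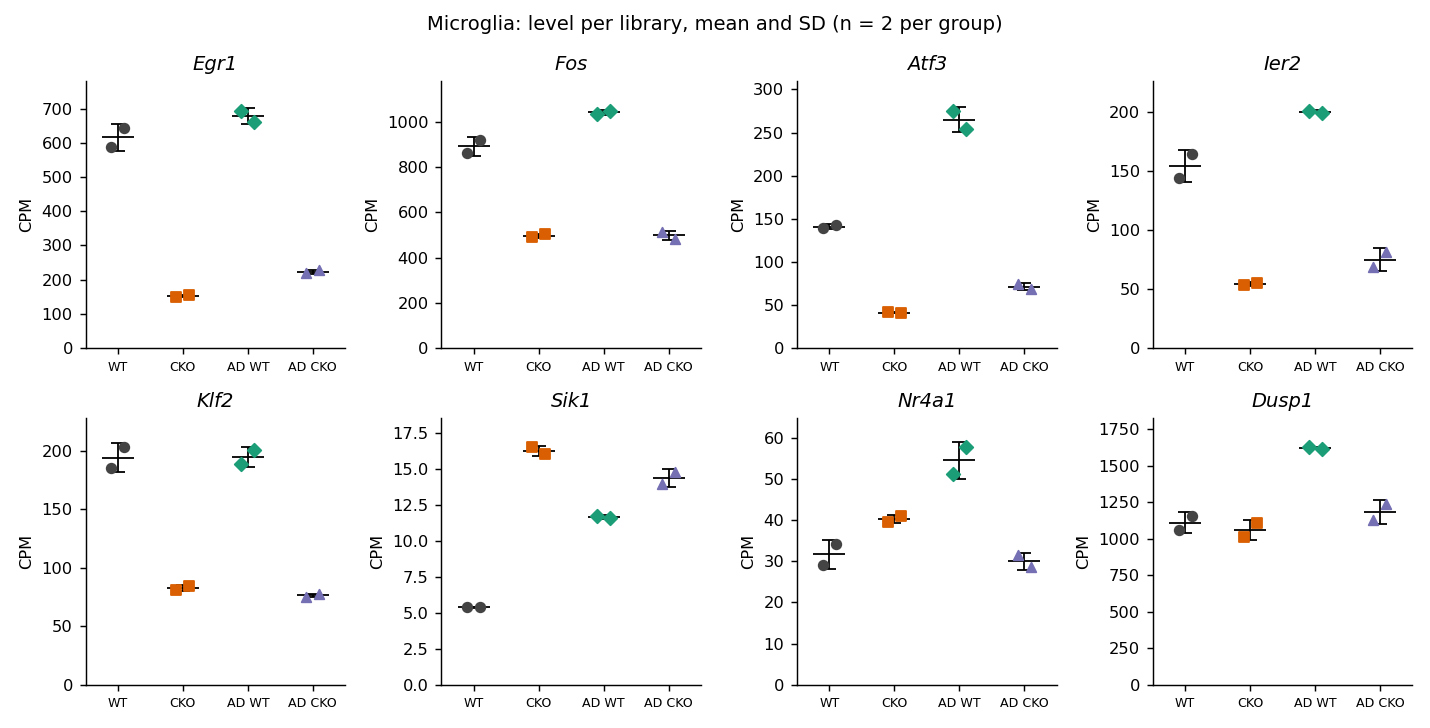
CPM of 8 members in each microglia library (points), with the mean and SD of each group (n = 2); the vertical axes start at 0. Egr1, Fos, Atf3, Ier2 and Klf2 are lower in both knockout groups than in both groups with Rack1 intact, Sik1 is lowest in WT, and Nr4a1 and Dusp1 are highest in AD WT.

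The comparison of AD CKO with AD WT asks about the knockout within the disease model. Of the 36 members, 23 fell and 2 rose in AD CKO against AD WT microglia, while 15% of all genes tested fell and 17% rose, and the median log2 fold change was -0.59 (0.00 over all genes tested). This comparison shares no library with CKO against WT. In both, 19 of the 36 members fell (52.8%), against 8.07% of all genes tested. These 19 are out of 21 members that fell without the AD model and 23 that fell with it. Over all genes tested, 1397 fell in both, out of 2756 without the AD model and 2601 with it. Fos fell by 1.07 ± 0.04 on the log2 scale, Atf3 by 1.89 ± 0.06, Egr1 by 1.60 ± 0.05, Ier2 by 1.42 ± 0.08 and Klf2 by 1.35 ± 0.06. The rises were Dusp6, the phosphatase of ERK (600 and 604 to 673 and 684 CPM, 0.17 ± 0.04), and Maff (2.83 and 2.96 to 4.65 and 4.96 CPM, 0.73 ± 0.25). The count of rises was 1 by DESeq2, without the filter on low counts, and without any one of the 4 libraries compared, since Maff was then not called (adjusted p 0.051 to 0.13). Among the falls, Jund was not called in 9 of the other settings, including without each AD WT library (0.14 and 0.13), and Junb, Klf4, Nr4a2 and Csrnp1 lost their calls without AD WT library 1 or 2, among others.

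The difference between these knockout effects, tested as the interaction, was called negative for 7 members and positive for 3, against 7.19% and 5.53% of all genes tested. Nr4a1 was at 51.3 and 57.6 CPM in AD WT and 31.4 and 28.5 in AD CKO, so it rose with the knockout without the AD model and fell with it (interaction -1.21 ± 0.13, adjusted p = 6.6e-08). Nr4a2 (5.96 and 4.88, then 3.97 and 3.03 CPM; interaction -1.65 ± 0.35) and Klf4 (9.81 and 9.93, then 6.30 and 7.81 CPM; interaction -1.20 ± 0.23) had the same pattern of signs. Sik1 (-1.29 ± 0.19) and Per1 (-0.85 ± 0.17) rose without the AD model and were not called with it. Fos (-0.22 ± 0.06) and Dusp1 (-0.39 ± 0.08) had a more negative knockout effect with the AD model, and Jun (0.28 ± 0.07) and Egr1 (0.41 ± 0.06) a less negative one. Dusp6 had a positive interaction of 0.20 ± 0.05. The Dusp6 call was lost without WT library 2, CKO library 2 or either AD WT library (adjusted p 0.061 to 0.086), and that of Fos without WT library 1, AD WT library 2 or AD CKO library 2 (0.056 to 0.073).

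In AD WT against WT microglia 18 members rose and 6 fell, while 10.7% of all genes tested rose and 8.62% fell, with a median of 0.25 against -0.02. Both AD WT libraries were above the 6 other microglia libraries for 17 members, as for 10.1% of all genes tested. Rises over 1 on the log2 scale were Maff (1.42 ± 0.28), Egr2 (1.19 ± 0.10), Egr3 (1.17 ± 0.33), Nr4a2 (1.16 ± 0.25) and Sik1 (1.11 ± 0.14). Atf3 rose by 0.91 ± 0.05 and Dusp1 from 1059 and 1160 to 1627 and 1617 CPM (0.55 ± 0.06, adjusted p = 2.3e-05). The falls were Klf10 (-0.62 ± 0.11), Hspa1b (-0.58 ± 0.11), Hspa1a (-0.39 ± 0.12), Dnajb1 (-0.24 ± 0.06), Rhob (-0.16 ± 0.04) and Dusp6 (-0.14 ± 0.04); all 3 heat shock members are among them. Without WT library 2, AD WT library 1 or AD WT library 2 the number of falls was 2, 2 and 3. Egr3 was not called without either WT library or AD WT library 1, Egr1 (0.14 ± 0.04) without WT library 1 or either AD WT library, and Fosb (0.57 ± 0.17) without WT library 2 or AD WT library 2. Gadd45b (0.64 ± 0.23) was not called in 6 alternative runs, among them without any one of the 4 libraries compared.

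Within the knockout, 10 members were higher and 4 lower in AD CKO than in CKO microglia, with 7.73% of all genes tested up and 6.92% down. This comparison shares its CKO libraries with CKO against WT. Egr2 rose from 8.14 and 6.87 to 18.3 and 17.4 CPM (1.25 ± 0.12), Maff by 1.01 ± 0.26, Atf3 by 0.79 ± 0.06, Ier3 by 0.73 ± 0.10 and Egr1 by 0.55 ± 0.05. Hspa1a fell by 0.76 ± 0.13 on the log2 scale, Hspa1b by 0.57 ± 0.12, Nr4a1 by 0.43 ± 0.09 and Rhob by 0.16 ± 0.04. Of these falls, the call of Rhob was lost in 4 alternative runs: with no filter on low counts and without CKO library 1, CKO library 2 or AD CKO library 1. That of Hspa1b was lost only without AD CKO library 1. The call of Maff was lost without CKO library 2 or AD CKO library 2, and that of Zfp36 (0.14 ± 0.04) without CKO library 1 or AD CKO library 2.

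In astrocytes the CKO comparison asks what the knockout in microglia goes along with in the neighbouring glia. Of the 36 members 34 rose and 1 fell, against 31.6% and 32.4% of all genes tested, and the median log2 fold change was 1.44 (0.01 over all genes tested). Both CKO libraries were above the 6 other astrocyte libraries for 33 members, as for 23.1% of all genes tested. The exceptions were Egr2, whose CKO libraries overlapped those of AD CKO, Klf10, which was highest in AD CKO, and Myc, which fell. These libraries also had the lowest astrocyte marker sum. Against WT, the sums of other cells' markers were 3.60 times as high for border macrophages and monocytes, 3.52 times for microglia and 3.11 times for endothelial cells. They were 2.56 times as high for neutrophils, 2.27 times for mural cells, 2.21 times for ependymal and choroid cells and 1.89 times for neurons. The lymphocyte sum was 5.04 times as high but low, at 1.33–1.64 CPM in WT and 6.99–7.94 in CKO. Sums for oligodendrocytes, their precursors and erythroid cells were 0.916, 0.734 and 0.978 times those of WT. The part of these shifts in the members' rise was not tested.

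All 6 EGR and NR4A members rose. Nr4a1 was at 39.6 and 38.7 CPM in WT, 211 and 211 in CKO, 47.1 and 47.0 in AD WT and 35.9 and 35.8 in AD CKO. Only the CKO libraries stood apart by several fold (2.43 ± 0.06, adjusted p = 1.4e-19). Nr4a2 rose from 4.07 and 4.39 to 33.4 and 30.2 CPM (2.91 ± 0.12), Nr4a3 from 0.383 and 0.526 to 2.13 and 1.60 CPM (2.02 ± 0.43) and Egr3 from 0.348 and 0.773 to 4.71 and 5.43 CPM (3.15 ± 0.33). Egr1 had a smaller rise, from 72.1 and 70.8 to 120 and 126 CPM (0.79 ± 0.06), and Egr2 rose by 1.16 ± 0.26.

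Of the AP-1 and bZIP members 7 of 8 rose. Fos was at 171 and 162 CPM in WT, 331 and 327 in CKO, 182 and 187 in AD WT and 202 and 190 in AD CKO (CKO against WT, 0.98 ± 0.05, adjusted p = 4.8e-14). Fosl2 rose from 2.64 and 3.31 to 15.0 and 16.1 CPM (2.38 ± 0.16), Maff from 1.11 and 0.680 to 7.64 and 7.91 CPM (3.12 ± 0.27) and Atf3 from 13.4 and 13.5 to 45.7 and 47.2 CPM (1.79 ± 0.09). Junb rose by 1.43 ± 0.07, Jund by 0.95 ± 0.17 and Jun by 0.92 ± 0.06, and Fosb was not called (0.30 ± 0.19).

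Klf2 was at 112 and 97.2 CPM in WT, 528 and 493 in CKO, 139 and 131 in AD WT and 108 and 102 in AD CKO, and Klf4 at 12.5 and 11.9, 63.5 and 57.6, 17.4 and 19.5, and 18.2 and 17.3 CPM. Their CKO changes were 2.29 ± 0.06 and 2.31 ± 0.09. Both are also known as flow-responsive genes of endothelium. The endothelial marker sum in CKO was 3.11 times that in WT, and its part in these changes was not tested. Klf6 rose by 1.48 ± 0.05. Klf10, a gene induced by transforming growth factor beta, had a change of 0.22 ± 0.09 (24.5 and 20.2, then 25.8 and 26.0 CPM) that was not called by DESeq2, in a fit of the compared groups alone, or without WT library 2, either CKO library or either AD CKO library (adjusted p 0.052 to 0.53). Myc fell from 7.45 and 7.05 to 3.85 and 5.06 CPM (-0.71 ± 0.16).

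All 7 IER and other response members and all 7 feedback members rose. Ier3 was at 17.9 and 19.4 CPM in WT, 136 and 137 in CKO, 33.6 and 30.0 in AD WT and a mean of 37.8 ± 2.53 (SD) in AD CKO (CKO against WT, 2.86 ± 0.08, adjusted p = 1.1e-18). Dusp1 was at 221 and 240 CPM in WT, 798 and 788 in CKO, 310 and 314 in AD WT and 208 and 198 in AD CKO (1.78 ± 0.05). In both genes the CKO libraries were the highest, and the AD CKO libraries of Dusp1 the lowest. Zfp36 rose from 107 and 102 to 353 and 339 CPM (1.73 ± 0.05), Sik1 from 3.62 and 3.49 to 16.1 and 13.8 CPM (2.07 ± 0.15) and Dusp2 from 0.591 and 0.526 to 4.35 and 4.40 CPM (2.96 ± 0.29). The smallest rise in these groups was that of Dusp6, at 0.32 ± 0.05.

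The heat shock members all rose in CKO astrocytes. The summed level of Hspa1a and Hspa1b was 70.7 and 66.2 CPM in WT, 369 and 352 in CKO, 61.3 and 58.2 in AD WT and 127 and 124 in AD CKO, so that CKO libraries were highest and AD CKO libraries next. Dnajb1 rose from 71.4 and 69.0 to 185 and 188 CPM (1.41 ± 0.05).

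**Figure D4:**
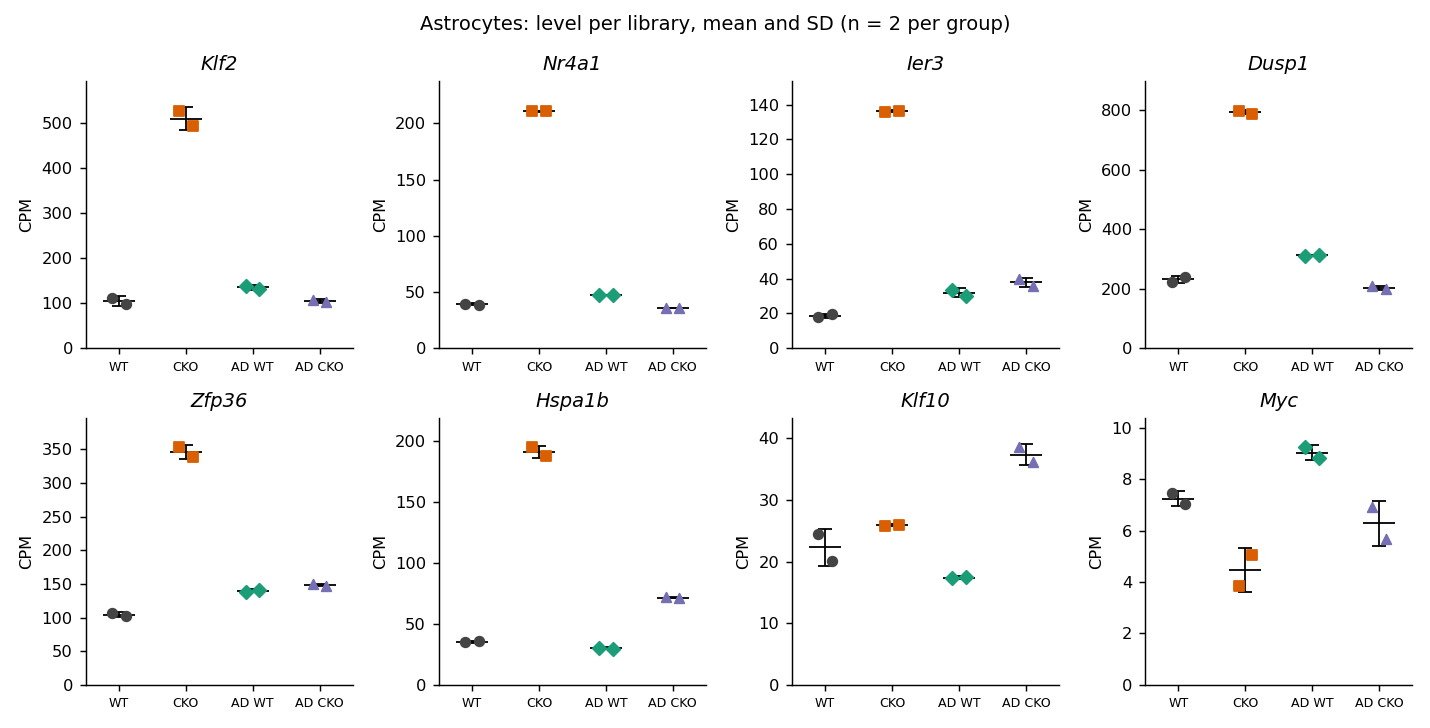
CPM of 8 members in each astrocyte library (points), with the mean and SD of each group (n = 2); the vertical axes start at 0. Klf2, Nr4a1, Ier3, Dusp1, Zfp36 and Hspa1b are highest in CKO, Klf10 is highest in AD CKO and Myc is lowest in CKO.

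In AD CKO against AD WT astrocytes 12 members rose and 12 fell, shares near the 25.1% and 27% of all genes tested that rose and fell, and the median was 0.07. All 3 heat shock members rose, Hspa1b from 30.4 and 29.3 to 71.5 and 71.5 CPM (1.26 ± 0.06), Hspa1a by 0.85 ± 0.07 and Dnajb1 by 0.37 ± 0.05. Klf10 rose from 17.3 and 17.6 to 38.5 and 36.2 CPM (1.10 ± 0.09, adjusted p = 7.8e-10), Egr3 by 2.03 ± 0.44, Jun by 0.53 ± 0.06 and Atf3 by 0.47 ± 0.09. Nr4a2 fell by 0.69 ± 0.11 on the log2 scale, Dusp1 by 0.62 ± 0.05, Csrnp1 by 0.56 ± 0.13, Myc by 0.52 ± 0.15, Nr4a1 by 0.39 ± 0.06 and Klf2 by 0.36 ± 0.06. Nr4a3 had no count in either AD WT library and 38 and 34 counts in AD CKO, which is at least 10.9-fold higher against a floor of 3 counts per library. Of these, the calls of Csrnp1 and Myc were lost without AD CKO library 2. Smaller changes were also lost without a library: the rises of Junb, Ier3 and Gadd45b without AD WT library 2 or AD CKO library 1, and the falls of Per1 without any one of the 4, Sik1 without either AD WT library or AD CKO library 1, Dusp6 without AD WT library 1 or AD CKO library 2, and Rhob without AD WT library 1. In these libraries the astrocyte marker sum of AD CKO was 0.634 times and the oligodendrocyte sum 2.79 times that of AD WT. Endothelial and microglia sums were at 1.08 and 1.06 times, and those of border macrophages and monocytes, neurons and mural cells at 2.19, 1.29 and 1.11 times. Ependymal and choroid, lymphocyte, oligodendrocyte precursor, neutrophil and erythroid sums were at 0.630, 0.734, 0.803, 0.870 and 0.213 times. The part of these shifts was not tested.

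The interaction in astrocytes was negative for 31 members and positive for 2, against 28.3% and 29.5% of all genes tested. The largest negative values were those of Nr4a2 (-3.60 ± 0.16), Maff (-2.89 ± 0.38), Nr4a1 (-2.82 ± 0.08), Klf2 (-2.65 ± 0.09) and Ier3 (-2.62 ± 0.10). The positive ones were Klf10 (0.88 ± 0.13) and Nr4a3, whose fitted size is not given because AD WT had no counts. Fosb, Egr3 and Myc were not called. The calls of Dusp5 (adjusted p = 0.0496) and Gadd45b (0.039) were each lost in most single-library omissions and by DESeq2 (0.11 for both). That of Egr2 was lost in 5 alternative runs, among them without WT library 2, CKO library 1, AD WT library 2 or AD CKO library 1. That of Jund was lost without either WT library or AD CKO library 2.

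**Figure D5:**
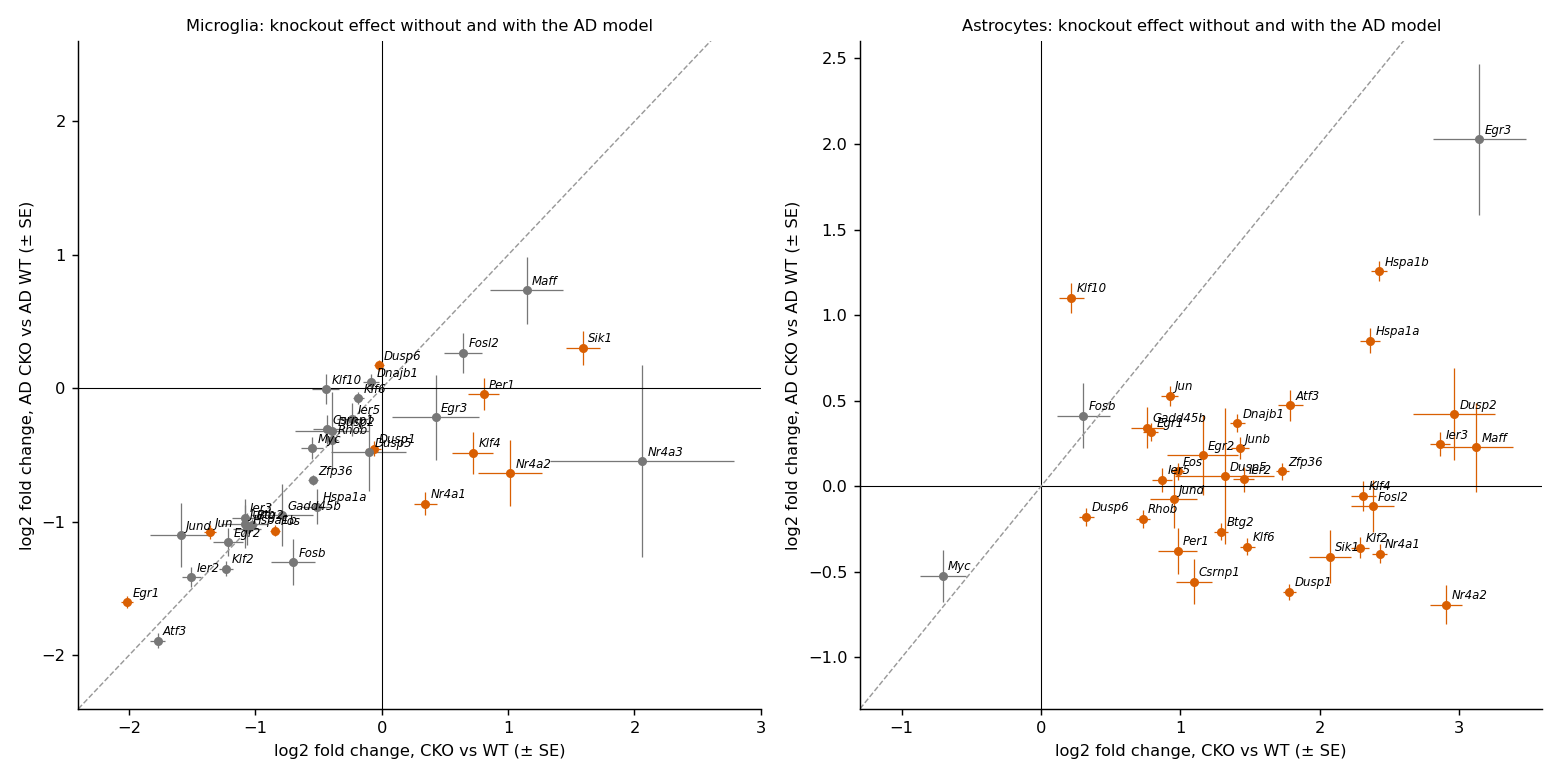
Log2 fold change of CKO against WT (horizontal) and of AD CKO against AD WT (vertical) for each member in microglia (left) and astrocytes (right), with SE bars; coloured points have an interaction with adjusted p under 0.05, and the dashed line marks equal effects. In microglia most members lie near the line at negative values, with Nr4a1, Nr4a2 and Klf4 above 0 on the horizontal and below 0 on the vertical axis; in astrocytes most lie far below the line. Nr4a3 is left out for astrocytes because AD WT was at 0.

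In AD WT against WT astrocytes 20 members rose and 4 fell, against 20% and 18% of all genes tested, with a median of 0.36 that was the same with Nr4a3 at its bound. Nr4a2 rose from 4.07 and 4.39 to 10.9 and 11.1 CPM (1.37 ± 0.12), Dusp2 by 1.28 ± 0.32, Fosl2 by 0.85 ± 0.17 and Ier3 by 0.77 ± 0.08. Hspa1b fell by 0.25 ± 0.06 on the log2 scale and Klf10 by 0.35 ± 0.09. Egr3 fell by 1.42 ± 0.48, a call lost without WT library 2 or either AD WT library, by limma-voom, and in a fit of the compared groups. Nr4a3, at 11 and 17 counts in WT and 0 in AD WT, was at least 5.03-fold lower. The rises of Maff and Egr2 were lost without WT library 2 or AD WT library 2. The small rise of Fos was lost in 4 alternative runs, among them without either of the same libraries. The rise of Csrnp1 was lost without either WT library or AD WT library 2, and the fall of Klf10 without WT library 1.

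Within the knockout, AD CKO astrocytes had lower levels than CKO for 32 members and higher levels for 2, against 28.4% and 31.4% of all genes tested, with a median of -1.16. These values share their CKO libraries with CKO against WT. Marker sums of AD CKO were 1.38 times those of CKO for astrocytes and 1.45 times for oligodendrocytes. They were 0.439 times for endothelial cells, 0.652 for microglia, 0.708 for mural cells, 0.665 for border macrophages and monocytes and 0.208 for neutrophils. Ependymal and choroid, lymphocyte, neuron, oligodendrocyte precursor and erythroid sums were 0.572, 0.356, 0.756, 0.931 and 0.684 times. The part of these shifts in the members' falls was not tested. The falls included Nr4a1 (-2.56 ± 0.06), Klf2 (-2.28 ± 0.06), Nr4a2 (-2.23 ± 0.11) and Dusp1 (-1.96 ± 0.05). The rises were Klf10 (0.53 ± 0.09) and Myc (0.50 ± 0.16). Without CKO library 1 or AD CKO library 1 the number of rises was 1, Myc being lost (adjusted p = 0.17 and 0.13). The falls of Nr4a3 and Jund were each lost in 6 alternative runs. For Nr4a3 these included the omission of any one of the 4 libraries. For Jund they included the omission of CKO library 1, either WT library or either AD CKO library. The falls of Gadd45b and Ier5 were lost without CKO library 1 or AD CKO library 2.

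Setting the cell types side by side, 19 members fell in CKO microglia and rose in CKO astrocytes, as did 5.74% of the 16161 genes tested in both tables, among them Fos, Jun, Junb, Jund, Atf3, Egr1, Egr2, Ier2, Ier3, Klf2, Zfp36 and Btg2. Another 8 rose in both (Fosl2, Klf4, Maff, Nr4a1, Nr4a2, Nr4a3, Per1 and Sik1), against 7.08% of those genes, and Myc fell in both, as did 6.48%. For 23 members both CKO libraries were below both WT libraries in microglia and above them in astrocytes, as for 12.3%. With the AD model 8 members fell in microglia and rose in astrocytes (Atf3, Egr1, Gadd45b, Hspa1a, Hspa1b, Ier3, Jun and Junb; 4.66% of all genes) and 8 fell in both (Btg2, Csrnp1, Dusp1, Klf2, Myc, Nr4a1, Nr4a2 and Rhob; 5.26%). The difference between cell types was not tested, as the tables were scaled separately.

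Genes outside the set but on the same pathways gave the following counts, to be read beside the shares of all genes tested, which with CKO were 17.7% up and 15.9% down in microglia and 31.6% up and 32.4% down in astrocytes. Of 22 signal inputs, the kinases and factors upstream, 3 rose and 9 fell in CKO microglia; the MADS-box factor Mef2c fell from 677 ± 2.16 to 466 ± 6.97 CPM (SD; -0.54 ± 0.04), and Elk3, an SRF partner, rose from 127 ± 1.75 to 189 ± 2.19 CPM (0.58 ± 0.05). In CKO astrocytes 7 of the 22 rose and 8 fell, which is near the shares of all genes, the CREB family member Crem rising from 20.3 ± 1.47 to 55.6 ± 2.07 CPM (1.45 ± 0.09). The median of this list was -0.06 in microglia and 0.08 in astrocytes.

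Of 24 other dissociation-linked genes tested in microglia, 7 rose and 9 fell with CKO (median -0.08). Socs3, a feedback inhibitor of JAK-STAT signalling, fell from 153 ± 12.5 to 59.1 ± 3.23 CPM (-1.37 ± 0.07), while Sgk1, a kinase induced by glucocorticoids, rose from 799 ± 0.449 to 1489 ± 14.0 CPM (0.90 ± 0.03) and Tnf rose by 1.24 ± 0.10. In CKO astrocytes 18 of 25 rose and 3 fell (median 0.74): Cebpd rose from 18.9 ± 0.370 to 102 ± 13.1 CPM (2.43 ± 0.08), Sgk1 from 100 ± 1.48 to 340 ± 12.5 CPM (1.76 ± 0.05) and the chemokine Ccl3, a microglia and macrophage product, from 2.21 ± 0.371 to 19.8 ± 0.383 CPM (3.15 ± 0.14). In AD CKO against AD WT astrocytes 8 of the 25 rose and 7 fell, near the 25.1% and 27% of all genes tested.

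Of 16 other heat shock genes, 12 rose and 2 fell in CKO astrocytes (median 0.29), Hsp90aa1 from 656 ± 1.17 to 1330 ± 7.55 CPM (1.02 ± 0.04), and 10 rose and 2 fell in AD CKO against AD WT astrocytes (median 0.18), where Hsph1, an HSP110 chaperone, rose by 1.29 ± 0.06. In microglia 2 rose and 3 fell with CKO, and Hsph1, which rose by 0.66 ± 0.09, went against Hspa1a and Hspa1b. Of 18 clock and glucocorticoid genes, 4 rose and 10 fell in CKO astrocytes, Nr1d1 (REV-ERB alpha) falling by 1.50 ± 0.05 on the log2 scale and the glucocorticoid target Tsc22d3 rising by 0.67 ± 0.04. In CKO microglia 5 of these rose and 2 fell, Fkbp5 rising from 134 ± 6.20 to 255 ± 4.82 CPM (0.93 ± 0.05). Of 15 other KLF and ATF genes 11 rose and 1 fell in CKO astrocytes (median 0.77), against 4 and 3 in CKO microglia. Other feedback genes gave 5 rises and 5 falls of 14 in CKO astrocytes, and 3 rises and 4 falls of 12 tested in CKO microglia.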

How the data were processed

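RNA was measured in 16 libraries, 2 in each of 4 groups in microglia and in astrocytes, made with SMART-Seq v4 from 10 ng RNA and read as pairs of 150 bases, per the labels' protocols. The authors deposited estimated counts per gene (expected counts, part of them fractional), not scaled to a common total. The submitters' processing notes name fastp, HISAT2, StringTie and mm10; versions, the counting step and the annotation release are not given in the sources used here. Groups and replicates come from sample titles.

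Counts were rounded to whole numbers and microglia and astrocytes were fitted separately, 8 libraries each, in R 4.3.3 with edgeR 4.0.16 (filterByExpr, TMM, robust quasi-likelihood F-tests, two-sided), with Benjamini-Hochberg adjustment over all genes tested in each of 5 comparisons and a threshold of 0.05. The interaction is the knockout effect with the AD model minus that without it. SE is the log2 fold change divided by the square root of F. CPM uses the unrounded counts. The code was tested on simulated data. Counting precision is limited for members of a few counts, such as Nr4a3, for which a floor of 3 counts per library was used.

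Alternatives were RLE size factors, DESeq2 1.42.0, limma-voom (limma 3.58.1), no filter, 1 CPM in at least 2 libraries, a replicate block, the compared groups alone, and each library left out. Coordinates, lengths and overlaps come from GENCODE M21 (mm10), promoters from RefSeq (GRCm38.p6); a promoter motif was searched on both strands. All 36 members could be named; outside them, at most 4 genes per list and comparison with the smallest p among those past the threshold, with a mean of at least 5 CPM, plus Rack1. Members, context lists and marker lists were chosen with earlier results of these data known.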

Additional observations from a re-analysis of the deposited data

Results flagged for a closer look

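The knockout effect with the AD model differed from that without it, by the interaction test of edgeR with an adjusted p under 0.05, for 10 members in microglia. Of all genes tested in microglia, 7.19% passed with a negative and 5.53% with a positive value. On the log2 scale the interaction was Fos (-0.22), Jun (0.28), Egr1 (0.41), Nr4a1 (-1.21), Nr4a2 (-1.65), Klf4 (-1.20), Per1 (-0.85), Dusp1 (-0.39), Dusp6 (0.20) and Sik1 (-1.29).

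In astrocytes the same test was passed by 32 members with counts in every group. Of all genes tested in astrocytes, 28.3% passed with a negative and 29.5% with a positive value. The transcription factors gave Fos (-0.89), Fosl2 (-2.50), Jun (-0.39), Junb (-1.20), Jund (-1.03), Atf3 (-1.32), Maff (-2.89), Egr1 (-0.47), Egr2 (-0.98), Nr4a1 (-2.82), Nr4a2 (-3.60), Klf2 (-2.65), Klf4 (-2.37), Klf6 (-1.83) and Klf10 (0.88). The other members gave Ier2 (-1.41), Ier3 (-2.62), Ier5 (-0.83), Csrnp1 (-1.65), Rhob (-0.92), Gadd45b (-0.42), Per1 (-1.36), Dusp1 (-2.40), Dusp2 (-2.54), Dusp5 (-1.26), Dusp6 (-0.50), Zfp36 (-1.65), Btg2 (-1.56), Sik1 (-2.48), Hspa1a (-1.51), Hspa1b (-1.17) and Dnajb1 (-1.04). Klf10 is the only positive value of these 32; Nr4a3 also passed, but has no interpretable size because both AD WT libraries were at 0.

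For 23 members both CKO libraries were below both WT libraries in microglia and above both WT libraries in astrocytes, as for 12.3% of the 16161 genes tested in both tables. The difference between the cell types was not tested.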

How the results depend on the processing

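Of 252 calls of members over all comparisons, 200 were kept in every alternative and 52 were lost in at least 1, of which 35 were lost only when a library was left out; no call changed direction in any alternative run. The number of members that rose in AD CKO against AD WT microglia was 2, and 1 by DESeq2 and without the filter on low counts. When each library was left out in turn, the members that rose in CKO against WT microglia numbered 5 to 8, those that fell in AD WT against WT microglia 2 to 6, those that rose in AD CKO against AD WT microglia 1 to 2, those that fell in AD CKO against CKO microglia 2 to 5, and those that rose in AD CKO against CKO astrocytes 1 to 2; leaving a library out also removes a residual degree of freedom and leaves a lone library assumed to vary like the other groups. The other counts stayed within 1.5 times their value in the alternatives run. Same-numbered libraries of different groups deviated with correlations of -0.03 to 0.037 in microglia and 0.0051 to 0.048 in astrocytes over 6 pairs of groups each. No shared deviation was thus seen over the genes tested, but this cannot exclude that same-numbered libraries were handled together. With the replicate block no call was lost, and 8 members rose and 22 fell in CKO against WT microglia (8 and 21 without it), and 34 and 1 in astrocytes. At these depths the members with a few counts, Nr4a3, Egr3, Dusp2, Dusp5 and Maff, carry the widest errors.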
